A study of Mus musculus with 19 samples.

Results

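The genes described here are the cytokines, chemokines and cytokine receptors measured in FDCPmix, a line of mouse blood progenitors that depends on interleukin-3 for growth. A gene was a member if its single symbol began with Il and a digit, Ccl, Ccr, Cxcl or Cxcr and a digit, Ifn, Tnfsf or Tnfrsf. The rule found 53 of the 9834 genes with 1 symbol, read by 66 probes. They were 25 ligands (15 chemokines, 6 interleukins and 4 members of the TNF family), 25 receptors (3 for chemokines, 8 for interleukins, 3 for interferons and 11 of the TNF receptor family) and 3 genes that are neither. Il3 itself was not among them.

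Each of the 19 two-channel arrays set the RNA of one sample, its own RNA, against a reference. Treated FDCPmix cells of no stated time (4 arrays) were set against non-treated FDCPmix cells. Treated FDCPmix cells taken 3, 7, 12 or 23 h after tamoxifen were set against treated cells at 0 h, with 4 arrays each at 3, 7 and 12 h and 3 at 23 h. Tamoxifen is a ligand of the oestrogen receptor, and the labels name no transgene that would respond to it. The titles add ES cell line, and no label says why. The own RNA was in Cy5 on 2 and in Cy3 on 2 arrays of each group of 4, and in Cy5 on 1 and in Cy3 on 2 arrays at 23 h. Replicate 2 at 23 h was not analysed here. No label says whether the replicates came from separate cultures, so p-values measure only the spread between these arrays, which may be technical.

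The values are deposited log ratios, taken as log2 of own RNA over reference. The labels give neither the base nor the numerator, so higher and lower hold under that assumption. Only ratios were used here, so neither the level of a gene nor the presence of a cell type's markers could be checked. In bulk RNA, fewer cells of a type and less RNA per cell cannot be told apart. The treated arrays were more spread over spots (SD 0.619 to 0.642) than the time course arrays (0.235 to 0.360). On each array 1 extreme value is repeated, with a sign that follows the dye (above 0 where Cy5 carries the own RNA, below 0 where Cy3 does) on 18 of 19 arrays. The exception was replicate 4 at 7 h. On that array Ndrg1, a stress-responsive gene, stood at 1.0, against -0.90, -1.22 and -1.40 on the other 7 h arrays. Replicate 3 at 23 h had a deposited median of 0.233, and several genes below ran against its group there, a trait seen only in the outcome. Both arrays in doubt were kept, and results that rest on them are also given without them.

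Chemokines are small secreted proteins that attract leukocytes through G protein-coupled receptors. Interferons and many, but not all, interleukins act through receptor chains that signal by Janus kinases and STAT proteins. Ligands of the TNF family bind trimeric receptors that feed into NF-kB or cell death. In myeloid progenitors interleukin-3 signals through its own alpha chain paired with the common beta chain, and the loss of that signal ends growth.

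No member passed an adjusted p of 0.05 (limma with Benjamini-Hochberg adjustment over all features) in any comparison with all arrays. Of all features the share called was 0% in treated cells, at 3 h, at 7 h and at 23 h, and 0.0186% at 12 h. At an unadjusted p under 0.05 the members numbered 5 of 52 in treated cells (all higher, against 3.10% of all features higher) and 4 of 53 at 3 h (2 higher, against 5.72%, and 2 lower, against 5.05%). They numbered 2 at 7 h (0 higher, against 3.45%, and 2 lower, against 3.59%) and 4 at 12 h (0 higher, against 3.38%, and 4 lower, against 2.87%). At 23 h they numbered 0, against 1.63% of all features higher and 1.72% lower. Ccl25, a chemokine of the thymus and gut, had values on only 2 treated arrays and was not tested there.

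Counted by side, 3 of the 47 members with a full set of treated arrays were above 0 on all 4 and 5 below, against 6.48% and 7.59% of all features. At 3 h 3 of 52 were above and 7 below (11.1% and 10.5%), and at 12 h 2 of 53 were above and 5 below (7.53% and 7.01%). At 7 h 2 of 53 were above and 2 below (5.79% and 6.82%), and with replicate 4 turned 6 were above and 7 below (8.07% and 8.01%). At 23 h 3 of 53 were above and 3 below on the 3 arrays (10.0% and 9.42%). In percent, the members above 0 on every array were 6.38%, 5.77%, 3.77%, 3.77% and 5.66% in treated cells and at 3, 7, 12 and 23 h, each below the share of all features. The members below 0 on every array were 10.6%, 13.5% and 9.43% in treated cells, at 3 h and at 12 h, above that share, and 3.77% and 5.66% at 7 and 23 h, below it. With the Cy3 arrays turned, 4 were above and 2 below in treated cells (8.07% and 8.50% of all features) and 4 and 2 at 3 h (7.00% and 7.40%). They were then 6 and 7 at 7 h (5.94% and 6.62%), 3 and 9 at 12 h (12.2% and 11.7%), and 8 and 6 at 23 h (12.2% each). These differences from all features were not tested.

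**Figure D1:**
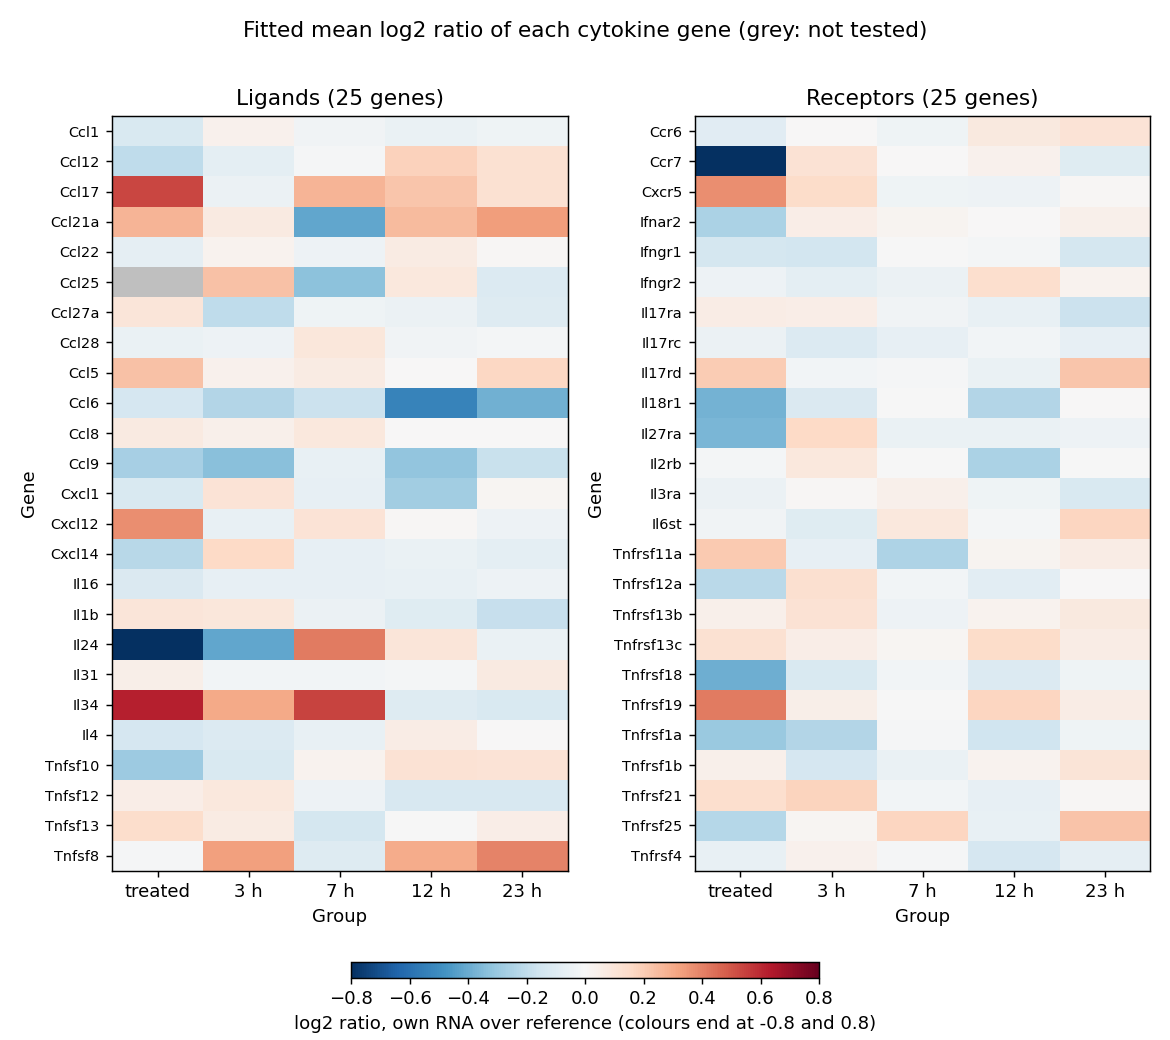
Fitted mean log2 ratio of own RNA over reference for the 25 ligand and 25 receptor genes (rows) in the 5 groups (columns). Red is higher and blue lower in the own RNA, grey was not tested, and Ccr7 at -1.18 and Il24 at -0.80 in treated cells lie at or past the end of the scale. The receptor panel is paler than the ligand panel at 3, 7, 12 and 23 h.

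Among the ligands, Ccl6 and Ccl9 stood out for running one way over the time course. Both encode mouse chemokines of myeloid cells that act through the receptor Ccr1. Ccl6 stood at -0.14, -0.17, -0.37 and -0.28 at 3 h (replicates 1 to 4), at -0.41, -0.35, -0.23 and 0.31 at 7 h, and at -0.62, -0.32, -0.41 and -0.79 at 12 h. At 23 h it stood at -0.78, 0.52 and -0.83 (replicates 1, 3 and 4). It was below 0 on each time course array except the 2 in doubt, where it was above 0. The mean was -0.24 ± 0.10 at 3 h, -0.17 ± 0.33 at 7 h and -0.54 ± 0.21 at 12 h (SD, n = 4 each), and -0.36 ± 0.76 at 23 h (SD, n = 3). With all arrays the fit gave -0.54 at 12 h (SE 0.18, limma adjusted p = 0.689) and -0.39 at 23 h (SE 0.21, limma adjusted p = 0.9997).

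Without the 2 arrays in doubt, a setting that drops 1 of them for its outcome, Ccl6 was called lower at 12 h (-0.54, SE 0.07, n = 4, limma adjusted p = 0.0138) and at 23 h (-0.80, SE 0.10, n = 2, limma adjusted p = 0.00928). It was the 1 member called there, and 0.168% of all features were called lower at 12 h and 0.237% at 23 h. In the same fit Ccl6 stood at -0.24 at 3 h (SE 0.07, limma adjusted p = 0.326) and at -0.34 at 7 h (SE 0.09, limma adjusted p = 0.151). The F test among the 4 times in that fit gave an unadjusted p of 0.00470 for Ccl6 (limma adjusted p = 0.455). The difference among the times thus did not pass the test, and their order was not tested. In treated cells Ccl6 stood at 0.11, 0.06, -0.56 and -0.15, on both sides of 0. If the sign of the Cy3 arrays is turned, the alternative reading of the columns, Ccl6 at 12 h stood at 0.06.

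Ccl9 stood at -0.13, -0.05, -0.38 and -0.50 in treated cells, and at -0.26, -0.42, -0.38 and -0.28 at 3 h. It stood at -0.21, -0.16, -0.28 and 0.40 at 7 h, at -0.18, -0.17, -0.22 and -0.68 at 12 h, and at -0.32, 0.12 and -0.31 at 23 h. Thus it was below 0 on each array except the 2 in doubt, of which replicate 3 at 23 h was put in doubt for its outcome. The fit with all arrays gave -0.33 at 3 h (SE 0.12, n = 4, limma adjusted p = 0.425) and -0.31 at 12 h (SE 0.12, n = 4, limma adjusted p = 0.706). Without both arrays in doubt, Ccl9 stood at -0.33, -0.23, -0.31 and -0.32 at 3, 7, 12 and 23 h and was not called. The F test among the times in that fit gave Ccl9 an unadjusted p of 0.835. With the Cy3 arrays turned, Ccl9 stood at -0.01 at 3 h and at 0.14 at 12 h. Ccl6 and Ccl9 were below 0 on all 11 arrays at 3, 7 and 12 h other than replicate 4 at 7 h, as were 0.659% of all features, a count made after their values were seen. No member was above 0 on all 11, as were 0.323% of all features.

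**Figure D2:**
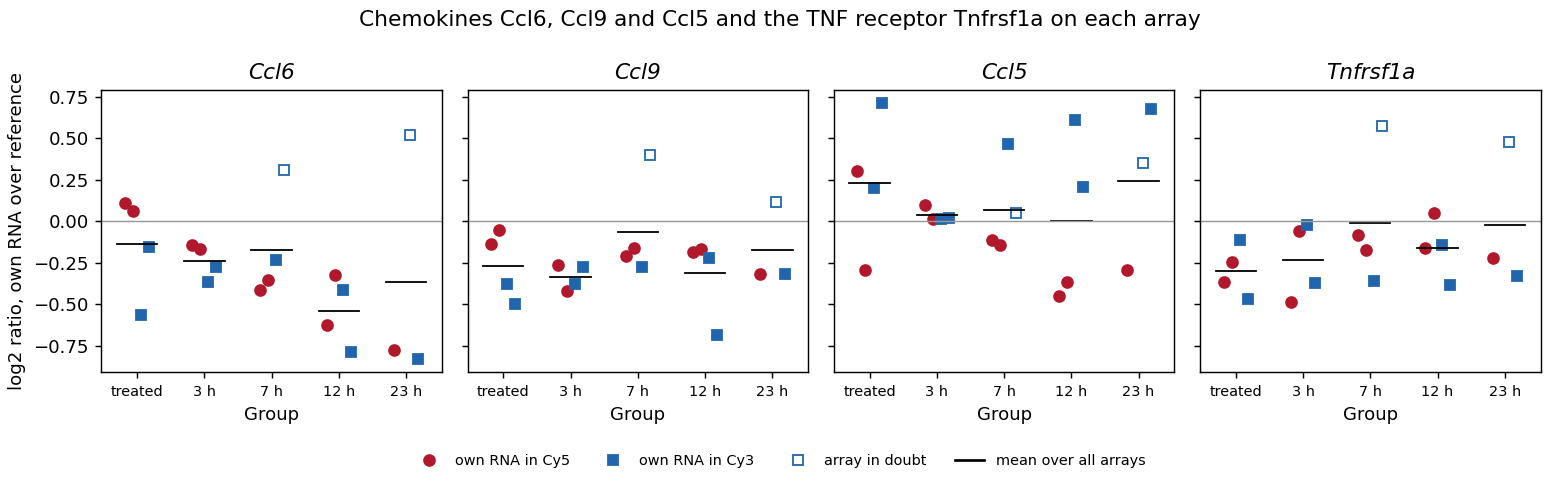
Log2 ratio of own RNA over reference on each array for Ccl6, Ccl9, Ccl5 and Tnfrsf1a, by group and dye, with the mean over all arrays as a line and the 2 arrays in doubt as open squares. Ccl6 and Ccl9 lie below 0 on the time course arrays apart from the open squares, while Ccl5 splits by dye at 12 h. The array of the open square at 23 h was put in doubt for its outcome.

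**Figure D3:**
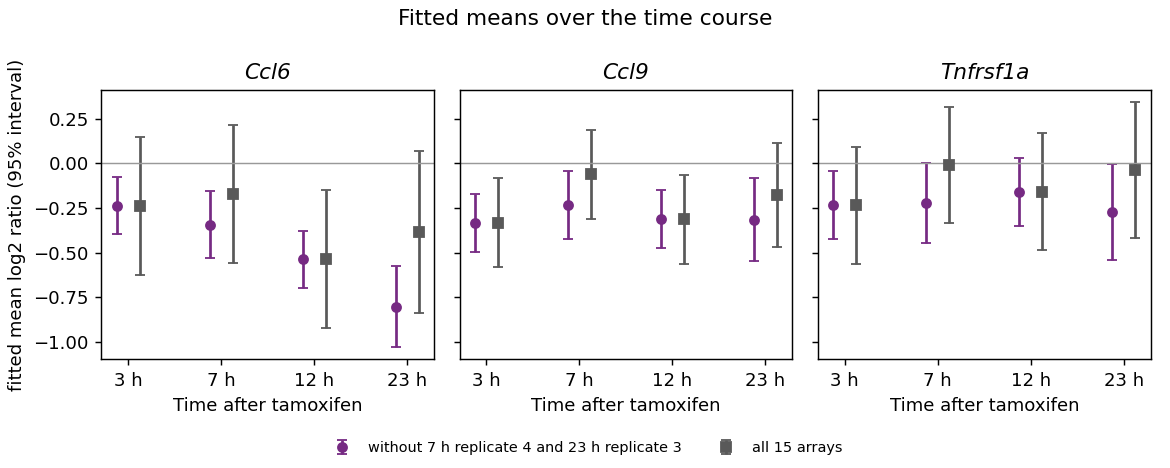
Fitted mean log2 ratio with its 95% interval for Ccl6, Ccl9 and Tnfrsf1a at 3, 7, 12 and 23 h after tamoxifen, without the 2 arrays in doubt (circles) and with all 15 arrays (squares). Without them Ccl6 lies at -0.24, -0.34, -0.54 and -0.80, while Ccl9 stays between -0.33 and -0.23.

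Both genes are neighbours on mouse chromosome 11, in the order Ccl5, Ccl9, Ccl6 among the genes measured here, both on the minus strand. The 250 bases before each start are shown because the genes run the same way (RefSeq, GRCm38.p6, Ccl6 at chr11:83593088-83593337 and Ccl9 at chr11:83578637-83578886, minus strand, 5′ to 3′). Capitals mark runs of at least 11 bases that both hold.
Ccl6: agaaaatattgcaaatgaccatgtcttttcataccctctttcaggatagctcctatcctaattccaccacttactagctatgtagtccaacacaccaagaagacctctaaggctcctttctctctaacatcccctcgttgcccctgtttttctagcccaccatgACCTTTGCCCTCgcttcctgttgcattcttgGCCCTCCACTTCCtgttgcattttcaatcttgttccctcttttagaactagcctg
Ccl9: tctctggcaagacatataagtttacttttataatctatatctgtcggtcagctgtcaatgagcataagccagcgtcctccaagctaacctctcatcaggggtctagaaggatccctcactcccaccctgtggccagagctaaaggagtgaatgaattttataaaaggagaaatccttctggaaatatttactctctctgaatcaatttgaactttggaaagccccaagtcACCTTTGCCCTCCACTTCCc
The runs are ACCTTTGCCCTC, which 4 of 32851 RefSeq promoters hold (0.0122%), and GCCCTCCACTTCC, which 5 hold (0.0152%). Both counts include Ccl6 and Ccl9, from which the runs were taken, so these shares are no test of the runs. The runs begin 86 and 55 bases before the start of Ccl6, and 20 and 14 bases before that of Ccl9, where they overlap. Searched on both strands, a loose NF-kB motif (GGG and CC with any 5 bases between) occurs once in Ccl9 and not in Ccl6, and in 45.8% of all promoters. The letters TATAAA match 3 times in Ccl9 and not in Ccl6, and occur in 12.4% of all promoters. In Ccl9 the match on the gene's own strand begins at -92 from the start, and those on the other strand at -94 and -224. The matches at -92 and -94 overlap, so they read the same stretch on both strands. Neither window holds the STAT letters TTCNNNGAA (7.02% of promoters) or the PU.1 letters GAGGAAGT (2.44%). Whether a probe of either chemokine also binds the transcript of a related one was not tested.

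Of the markers of monocytes and of mast cells, Lyz2, Mcpt8 and Tpsb2 lay below 0 on all 4 arrays at 12 h, and the other 4 measured did not. Of all features 7.01% were below 0 on every array at 12 h. Tpsb2 lay close to 0 there, at -0.10, -0.10, -0.11 and -0.05. No marker passed the test. Lyz2, lysozyme of monocytes and granulocytes, stood at -0.75, -0.63, -0.58 and -0.98 at 12 h (fitted mean -0.73, SE 0.26, limma adjusted p = 0.689), and at -0.95, 1.08 and -1.05 at 23 h. Its sign changed on replicate 3 at 23 h, as that of Ccl6 did. Mcpt8, a basophil protease, stood at -0.64, -0.10, -0.66 and -1.04 at 12 h (fitted mean -0.61, SE 0.18, limma adjusted p = 0.619). Lyz2 stood at 0.04 and Mcpt8 at 0.24 at 12 h with the Cy3 arrays turned. The other 3 monocyte markers measured, Cd68, Mrc1 and Fcgr1, had fitted means of -0.02, -0.02 and 0.20 at 12 h, and Fcgr1 was above 0 on all 4 arrays. The median of the 4 was -0.02. The other 2 mast and basophil markers, Cpa3 and Tpsb2, had -0.21 and -0.09. In treated cells the 4 monocyte markers had fitted means between -0.83 and -0.33, with a median of -0.40. Their part in the result was not tested. At 12 h the 6 lymphoid markers measured lay between -0.03 and 0.14, the 8 of fibroblasts and stroma between -0.11 and 0.12, the 2 endothelial ones between 0.04 and 0.12, and the 5 of progenitors between -0.08 and 0.21.

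Ccl5, the neighbour of Ccl9 and a chemokine of T cells and platelets, did not run with them. It stood at -0.45, -0.36, 0.61 and 0.21 at 12 h and at -0.29, 0.35 and 0.68 at 23 h. The arrays with the own RNA in Cy5 were below 0 and those in Cy3 above 0 at both times, so the fitted mean at 12 h was 0.00. With the Cy3 arrays turned it stood at -0.41 at 12 h (limma adjusted p = 0.143).

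In treated cells the 4 ligands with the smallest p were Ccl17, Cxcl12 and Il34, with means above 0, and Ccl9, and none passed the test. Ccl17, a ligand of Ccr4, stood at 0.72, 0.77, 0.53 and 0.12 (mean 0.54 ± 0.29, SD, n = 4; limma adjusted p = 0.792). Cxcl12, which holds progenitors in the bone marrow through Cxcr4, stood at 0.55, 0.19, 0.36 and 0.39 (mean 0.37 ± 0.14, SD, n = 4; limma adjusted p = 0.793). Its 3 probes had means of 0.87, 0.10 and 0.15 there, so the average rests largely on 1 probe. Il34, a ligand of the receptor Csf1r, stood at 0.29, 0.93, -0.50 and 1.75, a spread wider than its mean of 0.62. Il4i1, a secreted amino acid oxidase and neither ligand nor receptor, stood at 0.69, 0.70, 0.27 and 0.24 (mean 0.48 ± 0.26, SD, n = 4; limma adjusted p = 0.792). The 3 probes of Il4i1 had means of 0.22, 0.35 and 0.85. Ccl17, Cxcl12 and Il4i1 were above 0 on all 4 arrays, as were 6.48% of all features. A single fit over all 19 arrays, which takes the smaller spread of the time course for these arrays too, called Cxcl12 (limma adjusted p = 0.0102), Il4i1 (0.0176), Ccr7 (0.0300) and Ccl17 (0.0492), with 4.76% of all features called. With the Cy3 arrays turned Cxcl12 stood at -0.00, Ccl17 at 0.21 and Il4i1 at 0.22. Over the time course, which has another reference, Cxcl12 lay between -0.06 and 0.11, Il4i1 between -0.09 and 0.12 and Ccl17 between -0.05 and 0.27.

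Il34, looked at for 7 h after its values were seen, stood there at 0.31, 1.53, 2.22 and -1.90, the last on the array in doubt (fitted mean 0.54, SE 0.52, limma adjusted p = 0.867). Without that array and the one at 23 h its fitted mean at 7 h was 1.46 (SE 0.34, n = 3, limma adjusted p = 0.139), the smallest p of the members at 7 h in that fit. With replicate 4 turned it was 1.49 (limma adjusted p = 0.0591), the largest fitted mean of a member at any of the 4 times in that fit. It was 0.38 with the Cy3 arrays turned. Il34 was called at 7 h in none of these fits. Il24, an interleukin of the interleukin-10 family, stood at 0.09, -0.55, -0.00 and -1.19 at 3 h and at 0.02, 0.03, 1.43 and 0.17 at 7 h. Ccl21a, a ligand of Ccr7, stood at 0.05, 0.07, -0.54 and -1.23 at 7 h, where both Cy3 arrays were low (fitted mean -0.41, SE 0.16, limma adjusted p = 0.659). Without both arrays in doubt it stood at -0.16 at 7 h, and with replicate 4 turned at 0.20. It had the smallest F test p of the ligands among the times (unadjusted p = 0.0267, limma adjusted p = 0.751), with 6.63% of all features under 0.05. At 3 h Tnfsf10, the death ligand TRAIL, stood at -0.12 (SE 0.07) and Cxcl14, a chemokine of epithelia, at 0.16 (SE 0.10). At 7 h Ccl17 stood at 0.27 (SE 0.15) and Cxcl12 at 0.11 (SE 0.06). At 12 h Cxcl1, a chemokine for neutrophils, stood at -1.01, -0.27, 0.09 and 0.07, and Ccl12, a chemokine for monocytes, at 0.16, 0.29, -0.03 and 0.32. At 23 h Tnfsf12, the ligand TWEAK, stood at -0.18, -0.02 and -0.14, and Ccl21a at 0.28, 0.15 and 0.45, all 3 arrays on one side for each. When both arrays in doubt were left out, Il24 stood at 0.51, Ccl17 at 0.18 and Cxcl12 at 0.13 at 7 h, and Tnfsf12 at -0.16 and Ccl21a at 0.36 at 23 h. None of these passed the test in either fit.

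The median over the ligands was -0.03, 0.03, -0.04, -0.01 and -0.02 in treated cells and at 3, 7, 12 and 23 h, beside 0.01, 0.00, -0.00, 0.00 and 0.00 over all features. The median over the receptors was -0.05, 0.02, -0.01, -0.03 and 0.01. No array moved either median past 0.09 on either side of 0.

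**Figure D4:**
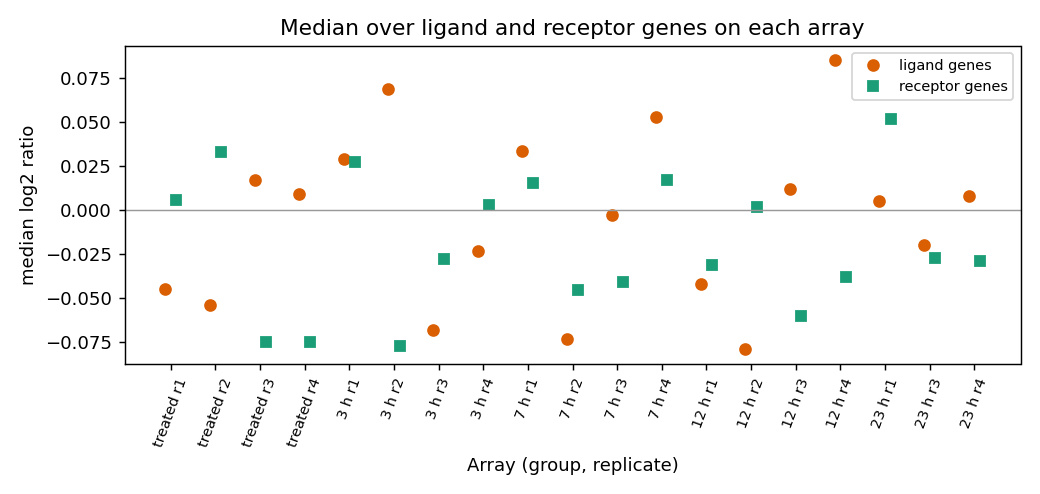
Median log2 ratio over the ligand genes (circles) and the receptor genes (squares) on each of the 19 arrays, which run along the horizontal axis by group and replicate. The medians lie between -0.08 and 0.09, with no group apart from the others.

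More receptors than ligands had narrow intervals around 0. The 95% interval of the fitted mean lay within 0.5 of 0 on the log2 scale for 24, 24, 25 and 22 of 25 receptors at 3, 7, 12 and 23 h, against 18, 18, 16 and 17 of 25 ligands. Over all features the share was 88.2%, 88.1%, 88.6% and 85.9%. In treated cells it was 11 of 25 receptors and 9 of 24 ligands, beside 46.3% of all features. Such an interval leaves room for changes smaller than its bounds.

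Il3ra, the alpha chain of the interleukin-3 receptor, had a fitted mean between -0.12 and 0.04 in each group. It stood at -0.10, 0.16, -0.16 and -0.09 in treated cells, at 0.10, -0.13, 0.11 and -0.03 at 3 h, and at -0.05, -0.11, 0.19 and 0.12 at 7 h. It stood at 0.05, -0.07, -0.01 and -0.11 at 12 h and at -0.27, -0.01 and -0.03 at 23 h. The fitted 95% interval was -0.34 to 0.24 in treated cells, -0.12 to 0.14 at 3 h, -0.09 to 0.17 at 7 h, -0.16 to 0.09 at 12 h and -0.27 to 0.03 at 23 h. At 23 h it was below 0 on all 3 arrays, as were 9.42% of all features, and had the smallest p of the receptors (fitted mean -0.12, unadjusted p = 0.109, limma adjusted p = 0.9997). The beta chains, which are not members, stood below 0 on all 4 treated arrays: Csf2rb, shared by several receptors, at -0.23, -0.33, -0.63 and -0.30, and Csf2rb2, the mouse chain specific to interleukin-3, at -0.47, -0.13, -0.47 and -0.45. Their fitted means there were -0.37 (SE 0.11, limma adjusted p = 0.793) and -0.38 (SE 0.11, limma adjusted p = 0.793). At 3, 7, 12 and 23 h Csf2rb had -0.24, -0.06, -0.15 and -0.15. Csf2rb2 had -0.01, -0.09, -0.37 and -0.21. Without both arrays in doubt Csf2rb stood at -0.38 at 7 h and -0.21 at 23 h, and Csf2rb2 at -0.26 and -0.55. Csf2rb was below 0 on all 4 arrays at 3 h, as were 10.5% of all features, and Csf2rb2 at 12 h, as were 7.01%. Cish, an inhibitor of cytokine signalling and a known target of STAT5, stood at -0.63, -0.24, -0.49 and -0.68 in treated cells and at -0.41, -0.67, -0.31 and -0.28 at 3 h. It stood at -0.39, -0.25, -0.40 and 0.29 at 7 h and at -0.17, -0.08, -0.09 and -0.33 at 12 h. At 23 h Cish stood at -0.68, 0.25 and -0.42, so it was above 0 only on the 2 arrays in doubt. Of these, replicate 3 at 23 h was put in doubt for its outcome. None of the 3 passed the test, and 7.59% of all features were below 0 on every treated array. All 3 changed sign in treated cells with the Cy3 arrays turned, to 0.09 for Csf2rb, 0.08 for Csf2rb2 and 0.08 for Cish. So turned, Csf2rb stood at 0.02 and Cish at -0.12 at 3 h, and Csf2rb2 at -0.01 and Cish at 0.04 at 12 h.

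**Figure D5:**
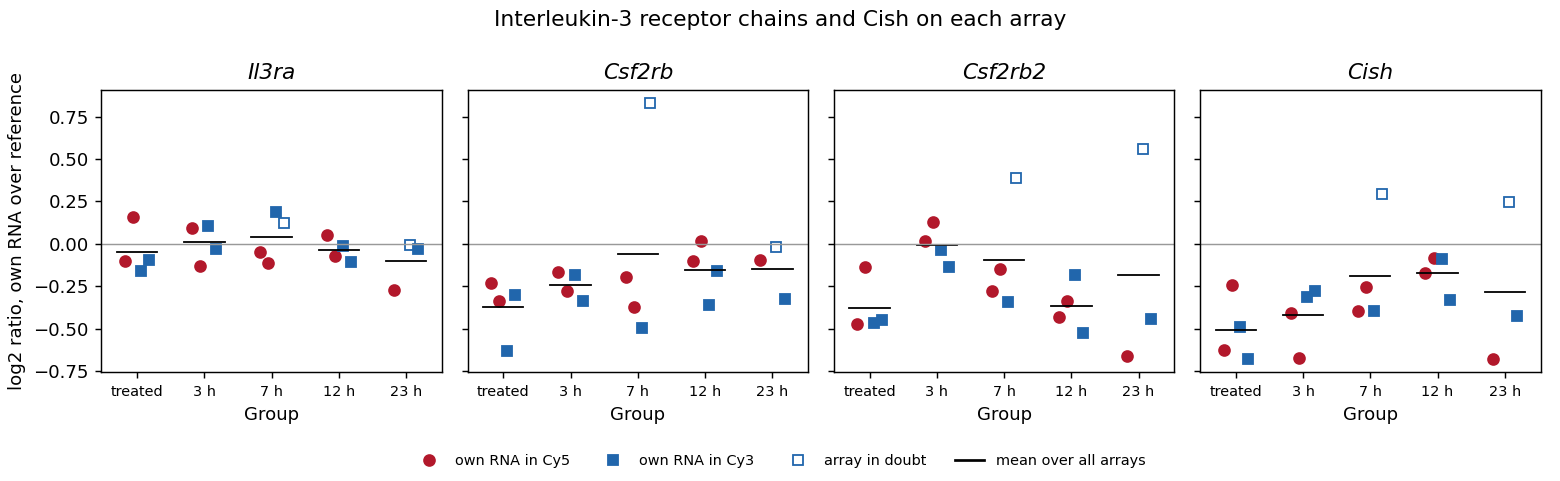
Log2 ratio of own RNA over reference on each array for Il3ra, Csf2rb, Csf2rb2 and Cish, by group and dye, with the mean as a line and the 2 arrays in doubt as open squares. Il3ra lies on both sides of 0 in each group except at 23 h, where its 3 arrays are below 0, while the treated arrays of the other genes all lie below 0.

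Among the other interleukin receptors, 2 had unadjusted p under 0.05 at 12 h. Il2rb, the beta chain shared by the interleukin-2 and interleukin-15 receptors, stood at -0.23, -0.17, -0.35 and -0.25 (mean -0.25 ± 0.08, SD, n = 4; limma adjusted p = 0.619). Il18r1, which binds interleukin-18, stood at -0.35, -0.12, -0.23 and -0.24 (mean -0.24 ± 0.10, SD, n = 4; limma adjusted p = 0.619). Both were below 0 on all 4 arrays, as were 7.01% of all features. With the Cy3 arrays turned they stood at 0.05 and 0.00. At 23 h both were near 0, and when both arrays in doubt were left out Il2rb stood at -0.11 and Il18r1 at -0.06 there. Il2rb had the smallest F test p of the receptors among the times (unadjusted p = 0.0334, limma adjusted p = 0.751). All 8 interleukin receptors had a fitted mean below 0 at 12 h, between -0.25 and -0.02, as did 48.9% of all features. At 3 h Il27ra, which binds interleukin-27, stood at 0.51, 0.29, -0.09 and -0.06, split by dye. At 7 h Il17rc, a chain of the interleukin-17 receptor, stood at -0.07 (SE 0.08). At 23 h Il17ra stood at -0.24, 0.03 and -0.28, and Il17rd at -0.06, 0.07 and 0.70. When both arrays in doubt were left out, Il17rc stood at -0.09 at 7 h, and Il3ra at -0.15, Il17ra at -0.26 and Il17rd at 0.32 at 23 h.

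In the TNF receptor family Tnfrsf1a, the main receptor of TNF, was the member most often below 0 after Ccl9. It stood at -0.37, -0.24, -0.11 and -0.47 in treated cells, at -0.48, -0.06, -0.02 and -0.37 at 3 h, and at -0.08, -0.17, -0.36 and 0.57 at 7 h. It stood at -0.16, 0.05, -0.14 and -0.39 at 12 h and at -0.22, 0.48 and -0.33 at 23 h. The 2 arrays in doubt were again the highest, and replicate 3 at 23 h was put in doubt for its outcome. It was below 0 on 16 of the 18 arrays other than replicate 4 at 7 h, and 0.901% of all features were below 0 at least that often. Ccl9 was below 0 on 17 of them (0.377% of all features at least that often). Tnfrsf1a, with the Cy3 arrays turned, was below 0 on 9 of the 18, as were 57.4% of all features at least that often, and its fitted mean was -0.01 in treated cells, -0.04 at 3 h and 0.10 at 12 h. As deposited, the fitted mean of Tnfrsf1a in treated cells was -0.30 (SE 0.12, limma adjusted p = 0.793). Without both arrays in doubt Tnfrsf1a stood at -0.23, -0.22, -0.16 and -0.27 at 3, 7, 12 and 23 h and was not called.

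No other TNF receptor was called in any group. Tnfrsf19, known from neural and epithelial tissue, stood at 0.08, -0.35, 1.17 and 0.77 in treated cells (fitted mean 0.42) and at -0.55 with the Cy3 arrays turned. Tnfrsf18, the receptor GITR of T cells, stood at -0.16, -0.89, -0.19 and -0.32 in treated cells, below 0 on all 4 arrays. Tnfrsf1b, the other receptor of TNF, stood at -0.11, -0.28, -0.10 and -0.04 at 3 h, also below 0 on all 4. Tnfrsf21, a death receptor, stood at 0.26, 0.07, -0.06 and 0.46 at 3 h, and Tnfrsf13b, the receptor TACI of B cells, at 0.16, 0.23, -0.02 and 0.10. Tnfrsf11a, the receptor RANK, stood at 0.05, -0.20, -0.86 and 0.02 at 7 h, so that 1 array set its mean of -0.25. Tnfrsf25, a death receptor of T cells, stood at 0.29, 0.18, -0.36 and 0.57 at 7 h and at -0.02 without both arrays in doubt. Without those arrays Tnfrsf11a stood at -0.39 at 7 h. At 23 h Tnfrsf25 stood at 0.37, -0.13 and 0.32, and at 0.34 without replicate 3, and Tnfrsf19 at 12 h at 0.02, -0.12, 0.57 and 0.22.

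Of the chemokine receptors, Ccr7, which binds Ccl21, stood at -1.85, -1.15, 0.49 and -2.22 in treated cells, a mean of -1.18 ± 1.20 (SD, n = 4; limma adjusted p = 0.803) with 1 array on the other side of 0. It lay between -0.10 and 0.12 over the time course. Cxcr5, a receptor of B cells, stood at -0.10, 0.03, 0.63 and 0.92 in treated cells, where the Cy3 arrays were the high ones, and at -0.41 with them turned. Of the interferon receptors Ifngr2, the signalling chain for interferon gamma, stood at 0.34, 0.10, 0.14 and -0.04 at 12 h (fitted mean 0.13, SE 0.07) and at -0.05 at 7 h (SE 0.07), or -0.10 there without replicate 4. Ifnar2 and Ifngr1 were not called in any group.

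Among the inhibitors, Il1rn, the interleukin-1 receptor antagonist, stood at 0.11, 0.27, 0.17 and 0.09 at 3 h and at -0.35, -0.00, -0.22 and -0.12 at 7 h. It was above 0 on all 4 arrays at 3 h, as were 11.1% of all features, and below 0 on all 4 at 7 h, as were 6.82%. The share of all features that did both was not counted. With replicate 4 at 7 h turned the arrays of the 2 times overlapped. Turning the Cy3 arrays put Il1rn on both sides of 0 at each of the 2 times. The F test among the times gave Il1rn an unadjusted p of 0.0395 (limma adjusted p = 0.751), with 6.63% of all features under 0.05. Il18bp, a decoy that binds interleukin-18, stood at -0.36, -0.32, -0.05 and 0.05 at 3 h, lower on the Cy5 arrays.

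The agreement of different probes of a gene bounds how far single genes can be read. Over 17 pairs of probes in the 9 members with more than 1, Pearson's r across arrays ranged from -0.23 to 0.64, with a median of 0.21, as a description of arrays that share a reference and a dye design. Cxcl12 and Il4i1 have 3 probes each among these pairs, while Ccl6, Ccl9 and Tnfrsf1a have 1 each. The pairs of Cxcl12 probes had r of 0.02, 0.27 and 0.00, and at 7 h these probes had means of 0.36, -0.05 and 0.02.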

How the data were processed

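Gene expression was measured on 19 two-channel arrays. The authors deposited 1 log ratio per probe, taken here as log2, though no source states the base. No source used here states the normalization. Per the labels' protocols, total RNA was reverse transcribed and labelled with Cy3 or Cy5. They mention organs and control animals, at odds with a cell line, so each reference follows the sample's channel labels.

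The repeated extreme value of each array (above 16 in size) was set to missing, and each array was centred on its median. Of 20205 probes, 13891 had 1 symbol, 5 several and 6309 none. Probes of a gene were averaged, which gave 16148 features. A feature needed 3 values of 4 arrays, or 2 of 3 at 23 h. Limma 3.58.1 (R 4.3.3) fitted the 4 treated arrays, and separately the 15 time course arrays, each with a dye term. P-values were adjusted by Benjamini-Hochberg over all features, with a threshold of 0.05. The fit was tested on simulated data. Intervals are 95%, and their width is set by the few arrays. Promoters came from RefSeq tables, for 44 of 53 members.

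The members and lists were chosen with earlier results of these data known. Genes named are members called in any fit, the 4 ligands and 4 receptors of smallest p per group, the 3 of each by the F test, and Il3ra. Others (Ccl5, Il1rn, Il18bp, Tnfrsf1b, Il34 at 7 h, Tnfrsf1a over time) were chosen after their values were seen. Il3 had no value here. Replicate numbers did not pair the arrays (mean r 0.03 for the same number at different times, lowest -0.12).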

Additional observations from a re-analysis of the deposited data

Results flagged for a closer look

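Outlying arrays were looked for in 46 sets of 4 arrays, and 2 were found, about as many as chance gives (1 in 20). Il24 stood at 1.43 (1.425) on replicate 3 at 7 h, far from 0.02, 0.03 and 0.17 on the other arrays. Ccl9 stood at -0.68 (-0.684) on replicate 4 at 12 h, far from -0.18, -0.17 and -0.22. Il1rn was above 0 on all 4 arrays at 3 h and below 0 on all 4 at 7 h, a difference of -0.34 (7 h minus 3 h). This difference itself was not tested, and the share of all features that change side in this way was not counted. Turning the Cy3 arrays put Il1rn on both sides of 0 at 3 h and at 7 h.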

How the results depend on the processing

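The number of members called stayed at 0 under all 35 alternatives except 2. With all 19 arrays in 1 fit 4 members were called in treated cells, and without both arrays in doubt 1 (Ccl6) was called at 12 h and 1 (Ccl6) at 23 h. Counts of all features called moved more. In treated cells it was 758 in that 1 fit, against 0. At 12 h it was 42 with array weights and 40 without both arrays in doubt, against 3. Without both arrays in doubt it was 16, 77 and 59 at 3, 7 and 23 h, against 0 each, and with replicate 4 at 7 h turned it was 19 at 3 h and 77 at 7 h. With the replicate number as a replicate block in place of the dye term, 0 members were called at each time, and 3 of 15 arrays were most like their own number. The treated arrays were fitted alone, so no block applied to them. The 3 or 4 arrays per group and the 2 readings of the sign limit each direction given, and no intensity was used that would show which probes lay near background. As deposited, Selenbp2, no member, stood in treated cells at -1.44 and -1.45 with own RNA in Cy5. It stood at -1.47 and -1.57 there with own RNA in Cy3. Bnip3, no member either, stood at 12 h at 0.16 and 0.16 in Cy5 and at -0.62 and -0.87 in Cy3. Which reading of the sign holds was not tested.

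With the Cy3 arrays turned, the receptor median was 0.063 in treated cells and 0.045 at 12 h, and these genes changed sign. In treated cells they were Cxcl12 -0.0017, Ccl9 0.17, Il34 -0.0085, Cxcr5 -0.41, Tnfrsf19 -0.55 and Il3ra 0.079. At 3 h they were Il24 0.18, Tnfrsf21 -0.019 and Il3ra -0.027. At 7 h they were Ccl21a 0.47, Il24 -0.39, Tnfrsf11a 0.17, Il17rc 0.0067 and Il3ra -0.12. At 12 h they were Ccl6 0.065, Ccl9 0.14, Il18r1 0.00050, Il2rb 0.052, Tnfrsf19 -0.22 and Il3ra 0.025. At 23 h they were Ccl21a -0.097 and Il17rd -0.27. Turned and without both arrays in doubt, the values at 3 h and 12 h were the same, those at 7 h were Ccl21a 0.18, Il24 -0.47, Tnfrsf11a 0.28, Il17rc 0.018 and Il3ra -0.11, and those at 23 h were Ccl6 0.026, Ccl21a -0.086, Il17ra 0.019 and Il17rd -0.38.

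With only the Cy5 arrays, the values were Cxcr5 -0.035, Tnfrsf19 -0.13 and Il3ra 0.030 in treated cells, Il3ra -0.018 at 3 h, Ccl21a 0.059 and Il3ra -0.080 at 7 h, Tnfrsf19 -0.049 at 12 h and Il17rd -0.064 at 23 h. The receptor median at 3 h was then -0.043 and the ligand median at 23 h 0.0050. With only the Cy3 arrays they were Il27ra -0.076 at 3 h, Ifngr2 0.042 at 7 h, Cxcl1 0.077 and the receptor median -0.065 at 12 h. With replicate 4 at 7 h turned, the 7 h values were Ccl21a 0.20, Tnfrsf25 -0.11 and Il3ra -0.023, and the ligand median was 0.023. Without both arrays in doubt Tnfrsf25 at 7 h was -0.019. With arrays not centred the ligand and receptor medians at 23 h were 0.058 and 0.083. With 1 probe per gene the ligand median was 0.018 in treated cells and 0.0025 at 23 h. Leaving out 1 replicate at a time gave ranges of -0.076 to 0.047 for the ligand median in treated cells and -0.047 to -0.00050 at 23 h. For Il3ra the range was -0.11 to 0.017 in treated cells, -0.042 to 0.045 at 3 h and -0.087 to 0.012 at 12 h, and at 7 h it was -0.024 to 0.32 for Tnfrsf25 and -0.11 to 0.00037 for Ifngr2. The cause of these changes was not tested.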

Other observations

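Of 51 genes of cytokine signalling that are no members (kinases, STAT proteins, adaptors, regulators), 49 were tested in treated cells and 51 at each time, and 0 were called with all arrays by limma. In treated cells 0 were higher and 3 lower at an unadjusted p under 0.05 (3.10% of all features each way). At 3 h it was 2 and 3 (5.72% and 5.05%), at 7 h 2 and 2 (3.45% and 3.59%), at 12 h 1 and 1 (3.38% and 2.87%) and at 23 h 1 and 2 (1.63% and 1.72%). Nfkbia, the inhibitor of NF-kB, stood at 0.01, -0.23, -0.27 and -0.68 at 3 h (fitted mean -0.29, SE 0.08, limma adjusted p = 0.425). Its fitted mean there was 0.18 with the Cy3 arrays turned. Stat4, which mediates interleukin-12 signals, stood at 0.25, 0.11, 0.05 and 0.12 at 3 h and at 0.18, 0.13, 0.17 and 0.07 at 7 h. It stood at 0.23, 0.09, 0.06 and 0.19 in treated cells, at 0.115, 0.07, 0.05 and 0.01 at 12 h, and at 0.19, -0.11 and 0.26 at 23 h. Of all features 6.48%, 11.1%, 5.79% and 7.53% were above 0 on every array in treated cells and at 3, 7 and 12 h. The fitted mean of Stat4 in those groups was 0.02, 0.05, 0.02 and 0.03 with the Cy3 arrays turned. Jak2, the kinase bound to the beta chains of the interleukin-3 receptor, lay between -0.04 and 0.14 in each group. Ms4a1, a B cell marker, stood at 0.50, 1.23 and 0.19 at 23 h (fitted mean 0.67, limma adjusted p = 0.9997), the highest on the array in doubt. Its fitted mean there was 0.35 without both arrays in doubt and -0.28 with the Cy3 arrays turned.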
